A study of Mus musculus with 13 samples.

Results

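The genes that make, sense and move cholesterol were followed in newly made kidney RNA. They comprised 31 genes listed by name and function, a choice made with earlier results of these data known: 18 enzymes of sterol synthesis (7 of the mevalonate route and 11 from squalene onward), 5 genes of the SREBP system that senses sterols, 4 genes of lysosomal export, transfer and storage, and 4 genes of the liver X receptors (LXR) and sterol efflux. All 31 were present among the 35013 gene symbols of the count table and all 31 passed the low-count filter that left 16468 genes for testing. RNA came from 13 kidney samples of female mice, 4 labelled Spns1 KO, 5 labelled WT and 4 labelled FeO. According to the methods, Spns1 KO mice carried Megalin3'Cre-Ert together with Spns1 flox/flox and Uprt flox/+, while WT and FeO littermates carried the same Cre and Uprt alleles with Spns1 flox/+, although the labels give the genotype of the latter as Spns1 WT. Every mouse received tamoxifen, so Cre could also act on the floxed Spns1 allele of WT and FeO mice. FeO mice were injected with iron sucrose (12 mg a day on 3 days) and studied 1 week after that. Their library titles name iron overload, and those of WT name a control. Age was not given in the sources used here. Cre was expressed from the megalin promoter, and uracil phosphoribosyltransferase then let those cells build 4-thiouracil into RNA made in a short window, which was captured on beads before poly-A selection and sequencing. Nothing in the labels says whether each library came from a separate mouse, so p-values measure the spread between these libraries.

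Cholesterol is built in the endoplasmic reticulum from acetyl-CoA through mevalonate, squalene and lanosterol. When membranes run low in sterol, the escort protein Scap carries the SREBP transcription factors to the Golgi for activation, whereas Insig1 and Insig2 hold them back when sterol is plentiful. Cholesterol taken up with lipoproteins, or in the proximal tubule with proteins endocytosed through megalin, reaches lysosomes, from which Npc2 and Npc1 pass it on. Surplus is esterified by Soat1 or exported by ABC transporters whose genes are switched on by LXR, the receptors for oxysterols.

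Total counts ran from 31809135 to 71296474 per library in Spns1 KO, from 23068023 to 37362311 in WT and from 25986133 to 29981814 in FeO. Levels are given as CPM, counts divided by a library size that edgeR's TMM method had adjusted. Counts of Spns1 itself did not separate the groups, with 39.0, 44.5, 36.6 and 59.0 CPM in Spns1 KO 1 to 4 and 57.2, 61.4, 57.6, 39.2 and 62.9 CPM across WT 1 to 5, at a log2 fold change of -0.31, SE 0.18, adjusted p = 0.225 in edgeR, whose p-values were adjusted by the Benjamini-Hochberg method (SE is the standard error). Spns1 KO therefore stands for the libraries so labelled throughout. Counts summed over a whole gene do not check the loss of single exons. The 10 proximal tubule markers were detected in every library, with summed levels of 3687 to 5221 CPM in WT, 7281 to 8376 in Spns1 KO and 2173 to 5228 in FeO. Of the 10, 7 were called higher in Spns1 KO (median log2 fold change 0.88), beside 14% of all genes. In bulk RNA, fewer cells of a type and less RNA per cell cannot be told apart. Markers of the adrenal cortex, the tissue that turns cholesterol into steroid hormones, divided the libraries more sharply. Their sum over 9 genes was 396, 424, 18.6, 12.0 and 473 CPM across WT 1 to 5, 6.72, 7.33, 583 and 12.95 in Spns1 KO 1 to 4 and 2760.3, 536, 1150.4 and 9.41 in FeO 1 to 4. Thus 6 libraries lay under 20 CPM (WT 3 and 4, Spns1 KO 1, 2 and 4, and FeO 4) and the other 7 near 400 CPM or above. Cyp11b2, the aldosterone synthase, was listed at 0 in all 6 and was present in the rest. None of the 9 was called in either comparison with WT by edgeR, DESeq2 or limma-voom, and 0 passed an unadjusted p under 0.05. All 9 nonetheless lay above WT in FeO (median log2 fold change 1.97) and all 9 below WT in Spns1 KO (median -0.98). Set directly against FeO, all 9 were lower in Spns1 KO (median -2.67). Of these, 2 passed an unadjusted p under 0.05 in edgeR and 1 was called by DESeq2. Steroid-making tissue is known for active sterol synthesis and uptake, so values from those 6 libraries alone are given beside the results. FeO 4 was the only FeO library among the 6, so every FeO value from them rests on 1 library.

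Several enzymes of synthesis, the lysosomal carrier Npc2 and the LXR gene Nr1h3 exceeded their WT level in both Spns1 KO and FeO, whereas the exporter Abca1 was lower in both. The lysosomal transporter Npc1 and the squalene synthase Fdft1 were lower in Spns1 KO, and the exporter Abcg1 was higher in FeO. Relative to WT, 6 of the 31 genes rose and 3 fell in Spns1 KO, where a call required an adjusted p under 0.05 and a log2 fold change beyond 0.5 in edgeR's fit of all libraries. Over all 16468 genes 14% were called higher and 7.55% lower, so that 9 of the 31 were called in either direction beside 21.6% of all genes. In FeO, 12 of the 31 rose and 3 fell, beside 22.4% and 19.7% of all genes, or 15 of the 31 in either direction beside 42.2%. Of the 18 enzymes of synthesis 4 were higher and 1 lower in Spns1 KO, and 9 higher and 1 lower in FeO. The number of the 18 higher in Spns1 KO was 1 without Spns1 KO 1, 2 or 3 and 2 without WT 1, 2 or 3. Over all genes the share higher was then 9.59%, 9.91% and 9.18%, and 12.6%, 11.9% and 10.6%. The number of the 18 higher in FeO was 4 without FeO 3 (20.1% of all genes). It was 5 after removal of a trend on transcript length and GC content (20.9%) and 3 with the adrenal cortex marker sum as a covariate (15.2%). The median log2 fold change of these 18 was 0.22 for Spns1 KO and 0.50 in FeO (0.22 with that covariate), beside -0.045 and -0.011 over all genes tested. The median of the 31 genes was 0.081 and 0.28. In Spns1 KO 3 of the 31 lay above and 3 below the WT range in every library (13.1% and 9.38% of all genes), and in FeO 7 above and 2 below (16.9% and 16.4%). Both comparisons use the same WT libraries, so their values are set side by side and not combined.

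The library labelled Spns1 KO 4 lay inside the WT range for 21 of the 31 genes, while 22 of the 31 were not called in Spns1 KO. The same count was not made for the other Spns1 KO libraries. Within FeO, FeO 1 was the highest library for 19 of the 31 and FeO 4 the lowest for 18. Such counts for single libraries, here and in the next sentence, were not made over all genes, so they do not set the 31 apart. FeO 4, the FeO library low in adrenal cortex markers, stood above every WT library for 9 genes (Acat2, Fdps, Cyp51, Nsdhl, Ebp, Insig2, Npc2, Abcg1 and Nr1h3) and below every WT library for 9 others (Hmgcs1, Lss, Hsd17b7, Srebf1, Srebf2, Insig1, Npc1, Stard4 and Abca1). Counted over the 6 libraries low in those markers, 2 genes rose and 0 fell in Spns1 KO (0 by edgeR, with 1 lower at an unadjusted p under 0.05), and 1 rose and 1 fell in FeO, which then has a single library whose spread is assumed equal to that of the other groups. Over all genes tested in those 6 libraries, 7.28% were called higher and 1.71% lower in Spns1 KO, and 5.62% higher and 2.06% lower in FeO. In those 6 libraries the FeO changes of 6 enzymes called in the full set were 0.37 for Acat2, 0.46 for Mvk, 0.19 for Mvd, 0.38 for Cyp51, 0.60 for Nsdhl and 0.26 for Sc5d on the log2 scale, and none of these 6 was called. With the marker sum as a covariate in the fit of all 13 libraries, Spns1 KO kept its counts of 6 and 3, and FeO had 6 higher and 1 lower, beside 15.2% and 9.38% of all genes for Spns1 KO and 15.2% and 9.89% for FeO. Scaling to library totals moved the median of all genes in Spns1 KO from -0.045 to -0.18 and the calls over all genes from 14% higher and 7.55% lower to 10.6% and 12.7%, and left 4 of the 31 higher and 3 lower.

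**Figure D1:**
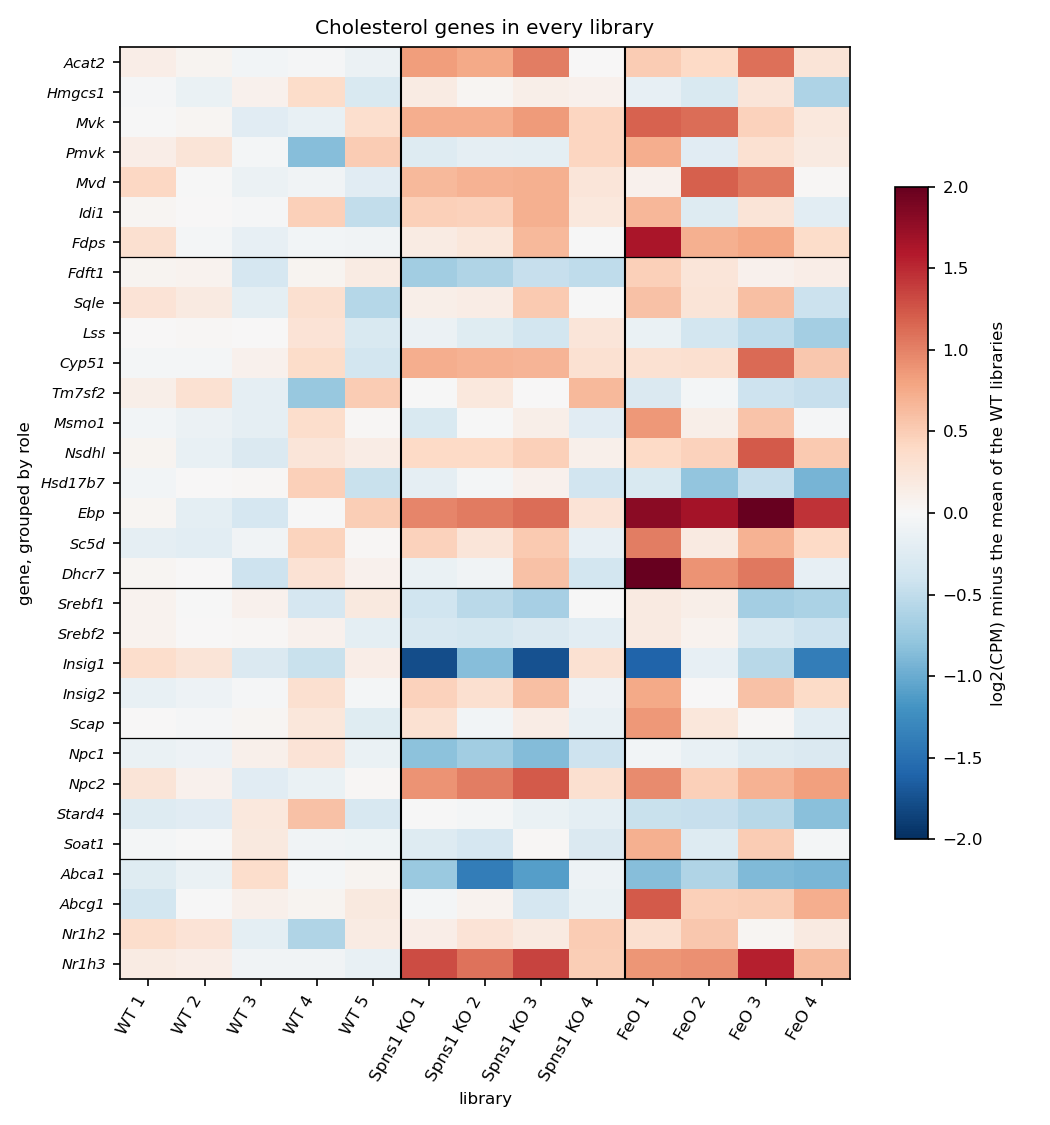
Heat map of the 31 cholesterol genes (rows, grouped by role from mevalonate at the top to LXR and efflux at the bottom) in the 13 libraries (columns). Colour gives log2 CPM minus the mean of the 5 WT libraries, red higher and blue lower, limited to 2 in either direction. The Ebp row is red in every FeO library, the Insig1 row is blue in 3 Spns1 KO libraries but not in the library labelled Spns1 KO 4, and the FeO columns differ among themselves.

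Among the 7 genes of the mevalonate route, 2 rose in Spns1 KO and 4 in FeO, beside 14% and 22.4% of all genes. Median log2 fold changes of the 7 were 0.44 and 0.60. None fell in edgeR, DESeq2 or limma-voom, and 0 were lower at an unadjusted p under 0.05 in either comparison. Mvk, which phosphorylates mevalonate, stood at 3.54, 3.64, 3.02, 3.21 and 4.48 CPM across WT 1 to 5, at 5.89, 5.90, 6.38 and 4.77 in Spns1 KO 1 to 4 and at 8.03, 7.72, 4.89 and 4.09 in FeO 1 to 4. Every Spns1 KO library was above every WT library, whereas FeO 4 lay inside the WT range. Relative to WT, log2 fold changes of 0.68 (SE 0.22, adjusted p = 0.0373) for Spns1 KO and 0.79 (SE 0.22, adjusted p = 0.0103) for FeO were obtained with edgeR. Acat2, the thiolase that opens the route, was 47.9, 45.3, 41.8, 43.1 and 40.3 CPM in WT, 77.7, 73.5, 88.5 and 44.0 for Spns1 KO and 61.9, 57.4, 93.7 and 52.0 for FeO. All 4 FeO libraries exceeded WT, and in Spns1 KO all except the library labelled Spns1 KO 4 did. The changes were 0.70 (SE 0.20, adjusted p = 0.0208) and 0.60 (SE 0.20, adjusted p = 0.0237) on the log2 scale. Of its transcript's 31-base sequences, 50.5% also occur in Acat3, so reads of the pair may be mixed.

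Fdps makes farnesyl diphosphate, the branch point to sterols and to protein prenylation. Its level was 15.6, 12.1, 11.1, 12.0 and 11.9 CPM across WT 1 to 5, 13.9, 14.5, 19.5 and 12.3 in Spns1 KO 1 to 4 and 38.4, 20.4, 21.2 and 16.04 in FeO 1 to 4, so that each FeO library lay above WT and the FeO libraries ranked as their adrenal cortex markers did. For FeO this gave 0.94 (SE 0.23, adjusted p = 0.00428) on the log2 scale, and for Spns1 KO 0.26 (SE 0.23, adjusted p = 0.416). In the 6 libraries low in adrenal cortex markers the FeO value was 0.54, and 0.47 with the marker sum as a covariate, and it was called in neither fit. Pseudogenes share 89.7% of the 31-base sequences of Fdps, so its counts are uncertain. Mvd, the decarboxylase that precedes it, had 13.6, 10.2, 9.39, 9.64 and 8.69 CPM in WT and 10.8, 23.2, 21.1 and 10.3 in FeO, a log2 change of 0.67 (SE 0.24, adjusted p = 0.0351), but FeO 1 and FeO 4 lay within the WT range. In Spns1 KO it was 15.9, 16.5, 16.7 and 12.0 CPM, which gave 0.57 (SE 0.24, adjusted p = 0.0979) and was not called. The remaining 3 genes of the route were not called. Idi1, the isomerase, had 0.44 in Spns1 KO and 0.13 in FeO, Pmvk, the second kinase, -0.089 and 0.22, and Hmgcs1, the synthase that commits carbon to the route, 0.081 and -0.19 on the log2 scale. Per kilobase of transcript, Hmgcs1 was the most abundant of the 31 in WT with 126 CPM and Mvk among the least with 2.16.

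Several of these calls rested on few libraries. In Spns1 KO, Mvk lost its call without any of Spns1 KO 1 (0.67), Spns1 KO 2 (0.67), Spns1 KO 3 (0.63), WT 1 (0.67), WT 2 (0.68), WT 3 (0.64) or WT 4 (0.66), and Acat2 without Spns1 KO 1 (0.65), Spns1 KO 2 (0.68) or Spns1 KO 3 (0.58). For Acat2 in FeO the call was lost without FeO 3 (0.39), and for Mvd in FeO without WT 2 to 5 in turn (0.66, 0.65, 0.66 and 0.63), FeO 2 (0.47) or FeO 3 (0.52). The FeO calls of Mvk and Fdps held whichever library was left out. After removal of a trend on transcript length and GC content, Mvk was 0.32 for Spns1 KO, and in FeO Acat2 was 0.46, Mvk 0.45, Mvd 0.36 and Fdps 0.53, none of them called.

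From squalene onward 2 of 11 enzymes rose and 1 fell in Spns1 KO, and 5 rose and 1 fell in FeO (median log2 fold changes 0.17 and 0.42). Ebp, the isomerase that shifts the ring double bond of the sterol nucleus, changed most among the 31 in FeO. It stood at 11.1, 9.37, 8.57, 10.7 and 15.1 CPM across WT 1 to 5, at 21.2, 22.2, 23.4 and 13.1 in Spns1 KO 1 to 4 and at 37.5, 34.0, 50.01 and 29.3 in FeO 1 to 4. All FeO libraries lay above all others, and the library labelled Spns1 KO 4 was the one Spns1 KO library within the WT range. The mean rose from 10.97 ± 2.54 CPM (SD, n = 5) to 19.97 ± 4.69 for Spns1 KO and 37.7 ± 8.86 for FeO (SD, n = 4 each). In log2 terms Ebp changed by 0.86 (SE 0.21, adjusted p = 0.00993) for Spns1 KO and 1.78 (SE 0.21, adjusted p = 0.000313) for FeO in edgeR, and both calls held whichever library was left out. In the libraries low in adrenal cortex markers the FeO change was 1.68, where FeO 4 was the only FeO library. That of Spns1 KO was 1.03, past the fold limit but with an adjusted p above 0.05. Ebp lies on chromosome X from 8185329 to 8193512 of GRCm38.

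Fdft1, the squalene synthase that commits farnesyl diphosphate to sterols, moved the other way in Spns1 KO. Levels were 49.6, 49.9, 37.5, 49.2 and 53.0 CPM in WT, 29.3, 31.2, 34.5 and 33.6 for Spns1 KO and 65.8, 56.1, 50.6 and 51.8 for FeO. Every Spns1 KO library was below every WT and every FeO library, while FeO overlapped WT. Its log2 change was -0.57 (SE 0.14, adjusted p = 0.00783) against WT for Spns1 KO, and 0.23 (SE 0.13, adjusted p = 0.168) for FeO. Leaving out any library kept the Spns1 KO call. It was -0.49 after a trend on transcript length and GC content was removed, just inside the fold limit, and -0.40 (not called) in the libraries low in adrenal cortex markers. Exons of Fdft1 overlap those of Ctsb on the opposite strand, and 16.5% of its 31-base sequences occur in Gm6781. Cyp51, the lanosterol demethylase, had 77.5, 77.4, 84.8, 103 and 62.1 CPM in WT, 133, 129.9, 128 and 98.8 for Spns1 KO and 98.6, 99.5, 176 and 116 for FeO. All Spns1 KO libraries but the one labelled Spns1 KO 4 exceeded WT 4, the highest WT library, as did FeO 3 and FeO 4. On the log2 scale this was 0.60 (SE 0.19, adjusted p = 0.0358) for Spns1 KO and 0.60 (SE 0.19, adjusted p = 0.0203) for FeO. The Spns1 KO call was lost without Spns1 KO 1, 2 or 3 (0.56, 0.57 and 0.57) or WT 1, 2, 3 or 5 (0.58, 0.58, 0.63 and 0.53), and the FeO call without FeO 3 (0.37).

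Dhcr7, which makes cholesterol itself in the last reduction of one branch, varied more within FeO, relative to its mean, than any other of the 31. It was 13.6, 13.3, 9.89, 16.1 and 13.9 CPM across WT 1 to 5, 12.0, 12.6, 19.8 and 10.3 in Spns1 KO 1 to 4 and 77.0, 24.7, 27.5 and 11.8 in FeO 1 to 4. FeO 1 to 3 lay above all other libraries and FeO 4 inside the WT range, in the order of their adrenal cortex markers. The FeO change was 1.40 (SE 0.38, adjusted p = 0.00888) from edgeR, and without FeO 1 it was 0.70 and not called. It was 0.32 with the marker sum as a covariate and -0.066 in the libraries low in those markers, where FeO 4 was the only FeO library. In Spns1 KO the change was 0.031 (SE 0.38, adjusted p = 0.961), and the library labelled Spns1 KO 3, the one Spns1 KO library high in adrenal cortex markers, was the highest. Nsdhl, a decarboxylating dehydrogenase of the demethylation complex, was 35.4, 30.8, 28.0, 40.4 and 37.8 CPM in WT and 45.0, 47.2, 80.1 and 49.3 in FeO, with no overlap, or 0.69 (SE 0.18, adjusted p = 0.00660) on the log2 scale. Without FeO 3 it was 0.45, inside the fold limit. In Spns1 KO it was 44.9, 45.3, 47.4 and 36.5 CPM, or 0.34 (SE 0.18, adjusted p = 0.182) on the log2 scale, and not called.

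Sc5d, the lathosterol desaturase, was 37.6, 36.6, 40.6, 58.1 and 43.0 CPM in WT and 86.8, 48.0, 69.1 and 56.3 in FeO, where FeO 2 and FeO 4 lay inside the WT range. Its FeO change of 0.59 (SE 0.20, adjusted p = 0.0240) lost its call without WT 1 (0.54), WT 2 (0.54), FeO 1 (0.44) or FeO 3 (0.56) and under the covariate (0.35). In Spns1 KO it was 58.8, 50.1, 61.3 and 38.0 CPM, a change of 0.27 that was not called. Hsd17b7, the 3-ketosteroid reductase of the same complex as Nsdhl, was the enzyme that fell in FeO. Its levels were 63.9, 66.3, 67.1, 92.3 and 48.4 CPM in WT and 53.6, 38.4, 48.1 and 34.7 in FeO, where only FeO 1 overlapped WT. On the log2 scale this was -0.63 (SE 0.19, adjusted p = 0.0135), -0.47 without WT 4, where it was no longer called, and -0.81 with the adrenal cortex marker sum as a covariate, where it was. It was -0.31 after removal of the length and GC trend and -1.13 in the libraries low in adrenal cortex markers, and called in neither. In Spns1 KO it stood at 58.5, 64.7, 70.5 and 51.0 CPM, all within the WT range. The other 4 enzymes were not called in either comparison in the full set. Lss, the lanosterol synthase, had log2 fold changes of -0.11 in Spns1 KO and -0.42 in FeO (adjusted p = 0.0472 from edgeR, inside the fold limit, and -0.50 and called without FeO 1). Sqle, the squalene epoxidase, had 0.17 and 0.27, Msmo1, the methyl sterol oxidase, -0.11 and 0.42, and Tm7sf2, a sterol reductase, 0.18 and -0.35. After removal of the length and GC trend the FeO value of Tm7sf2 was -0.71 and called, and that of Sc5d was 0.94. Msmo1 was called in FeO without WT 4 (0.53), FeO 2 (0.53) or FeO 4 (0.56). Exons of Tm7sf2 overlap Vps51 on the same strand, so the reads of this pair may be mixed.

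**Figure D2:**
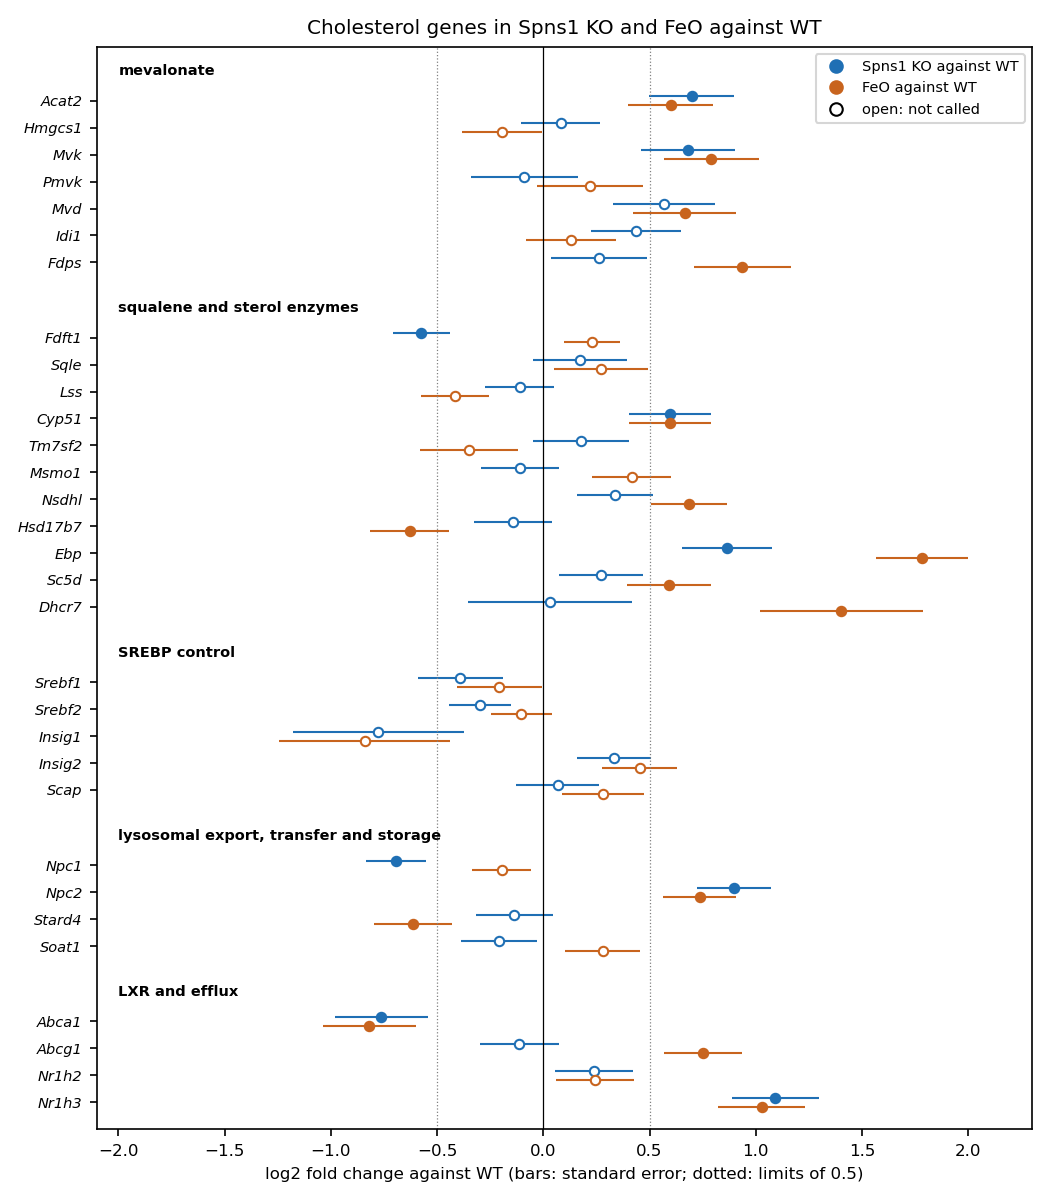
Log2 fold change against WT (horizontal axis) of the 31 genes (vertical axis, by role), blue for Spns1 KO and orange for FeO, with standard errors as bars, filled points where the gene was called and dotted lines at the fold limits of 0.5. Ebp, Dhcr7 and Nr1h3 lie farthest to the right in FeO and Nr1h3 in Spns1 KO, whereas Abca1 lies to the left in both.

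Promoters of 4 of these genes are shown as examples: Mvk and Ebp, which rose, Abca1, which fell, and Hmgcs1, which was not called and whose promoter alone of the 25 found held the sterol response element core. Promoters of other called genes, among them Npc2 and Nr1h3, are not shown. Each run is the 250 bases before a RefSeq start in GRCm38.p6, 5′ to 3′ on the strand of the gene, at chr13:119690101-119690350 (+), chr5:114444019-114444268 (+), chrX:8193513-8193762 (-) and chr4:53159896-53160145 (-). Capitals mark matches on either strand to TCACNCCAC (sterol response element core), CCAAT (the NF-Y box) and GGGCGG (the Sp1 box).
Hmgcs1: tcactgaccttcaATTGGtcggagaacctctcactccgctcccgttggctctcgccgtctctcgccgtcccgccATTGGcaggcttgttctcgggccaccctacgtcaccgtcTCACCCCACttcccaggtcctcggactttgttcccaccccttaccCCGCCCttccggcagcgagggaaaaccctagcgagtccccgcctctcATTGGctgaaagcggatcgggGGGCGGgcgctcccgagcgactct
Mvk: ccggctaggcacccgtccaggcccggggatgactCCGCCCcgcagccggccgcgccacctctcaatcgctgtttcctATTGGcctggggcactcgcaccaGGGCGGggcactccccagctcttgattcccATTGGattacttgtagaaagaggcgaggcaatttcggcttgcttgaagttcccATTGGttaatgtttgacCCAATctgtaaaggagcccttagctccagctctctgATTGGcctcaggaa
Ebp: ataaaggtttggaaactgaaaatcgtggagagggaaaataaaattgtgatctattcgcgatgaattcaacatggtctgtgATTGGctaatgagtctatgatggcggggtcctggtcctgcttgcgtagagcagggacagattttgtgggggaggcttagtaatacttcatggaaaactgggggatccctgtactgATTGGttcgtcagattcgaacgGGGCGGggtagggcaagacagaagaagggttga
Abca1: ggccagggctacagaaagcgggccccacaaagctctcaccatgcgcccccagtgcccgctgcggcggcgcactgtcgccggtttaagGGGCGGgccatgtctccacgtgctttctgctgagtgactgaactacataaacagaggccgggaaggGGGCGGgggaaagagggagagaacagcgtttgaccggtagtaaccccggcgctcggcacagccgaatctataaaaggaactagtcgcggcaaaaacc

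RefSeq promoters were found for 25 of the 31 genes. In windows from 250 bases before to 50 after each start, TCACNCCAC occurred in 1 of the 25 genes (4%) and in 1.44% of all 27025 genes with a promoter. In Hmgcs1 it begins 137 bases before the start. CCAAT occurred in 20 of the 25 (80%) and in 41.1% of all genes, and GGGCGG in 22 of the 25 (88%) and in 38.2%. The 27025 genes were not limited to those that passed the low-count filter, as all 25 did, so these shares are not matched for expression. Mvk carries 5 CCAAT boxes and 2 GGGCGG boxes in the printed run, Ebp 2 and 1, and Abca1 has GGGCGG 2 times without CCAAT. These are matches of letters in a window, not measured binding.

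Of the 5 genes of the SREBP system, 0 were called in Spns1 KO and 0 in FeO by edgeR, DESeq2 or limma-voom, and at an unadjusted p under 0.05 there were 0 in Spns1 KO and 1 in FeO, Insig2. Insig1, the sterol-sensitive anchor of the SREBP escort complex and itself a classical SREBP target, had the lowest log2 fold changes of the 31 in both comparisons without passing the test. It was 242, 224, 154, 138 and 206 CPM across WT 1 to 5, 54.9, 105, 56.4 and 234 in Spns1 KO 1 to 4 and 62.0, 169, 128 and 72.2 in FeO 1 to 4. Libraries labelled Spns1 KO 1 to 3 lay below every WT library and the library labelled Spns1 KO 4 near the top of the WT range, while FeO 2 alone of its group lay inside that range. Insig1 gave -0.78 (SE 0.40, adjusted p = 0.172) for Spns1 KO and -0.84 (SE 0.40, adjusted p = 0.0997) for FeO in edgeR. When the library labelled Spns1 KO 4 was left out it was -1.42 in Spns1 KO and called. In FeO it was called without FeO 2 (-1.13) and without the library labelled Spns1 KO 4, which enters only the shared estimate of spread (-0.84). Srebf2, the SREBP that drives sterol synthesis, was 139, 134, 135, 142 and 116 CPM in WT and 107, 104, 108 and 114 in Spns1 KO. Every Spns1 KO library was below every WT library, yet the change of -0.30 (SE 0.15, adjusted p = 0.149) was small and not called. In FeO it split, with 150.4, 140.4, 106 and 99.5 CPM and a change of -0.10 (SE 0.15, adjusted p = 0.580). Srebf1, whose products drive fatty acid synthesis, had -0.39 in Spns1 KO and -0.21 in FeO. Insig2, the second anchor, had 0.33 and 0.45 (adjusted p = 0.0456 in FeO from edgeR, inside the fold limit), and passed that limit without WT 4 (0.56), FeO 2 (0.59) or FeO 4 (0.50). Scap, the escort, had 0.067 and 0.28.

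The partners that export cholesterol from lysosomes moved apart in Spns1 KO, where 1 of the 4 genes of export, transfer and storage rose and 1 fell. Npc1, the membrane transporter, was 52.1, 53.1, 61.0, 69.2 and 52.0 CPM across WT 1 to 5 and 32.4, 35.4, 31.3 and 43.1 in Spns1 KO 1 to 4. Every Spns1 KO library was below every WT library and below every FeO library (54.8, 51.6, 47.7 and 46.7 CPM). For Npc1 the log2 values were -0.69 (SE 0.14, adjusted p = 0.00317) for Spns1 KO and -0.20 (SE 0.14, adjusted p = 0.255) for FeO, and the Spns1 KO call held whichever library was left out. After removal of the length and GC trend it was -0.47, inside the fold limit, and in the libraries low in adrenal cortex markers -0.75 with an adjusted p just above 0.05. Exons of Npc1 overlap those of Rmc1 on the opposite strand. Npc2, the soluble lysosomal protein that hands cholesterol to Npc1, rose. Its levels were 35.7, 31.7, 25.7, 27.1 and 30.3 CPM in WT, 56.0, 61.0, 70.1 and 37.5 for Spns1 KO and 57.8, 41.5, 48.2 and 53.1 for FeO, with every library of both groups above every WT library. The changes were 0.90 (SE 0.17, adjusted p = 0.00242) and 0.74 (SE 0.17, adjusted p = 0.00372), and both calls held whichever library was left out. In the libraries low in adrenal cortex markers they were 1.03 (called) and 1.08 (not called). Npc2 lies on chromosome 12 from 84754562 to 84773152.

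In FeO 1 gene of this role rose, Npc2, and 1 fell. Stard4, a soluble carrier of cholesterol between membranes and a known SREBP2 target, was 83.1, 85.2, 115, 149.5 and 80.0 CPM across WT 1 to 5 and 73.3, 72.0, 67.7 and 55.5 in FeO 1 to 4. Every FeO library was below every WT and every Spns1 KO library (98.8, 97.2, 91.0 and 86.6 CPM). The FeO change was -0.61 (SE 0.18, adjusted p = 0.0147) from edgeR and the Spns1 KO change -0.14 (SE 0.18, adjusted p = 0.611). In FeO it was -0.42 without WT 4 and -0.50 without FeO 4, neither called. It was -0.21 after removal of the length and GC trend and -0.62 with the adrenal cortex marker sum as a covariate (neither called). In the libraries low in adrenal cortex markers, where FeO 4 was the only FeO library, the FeO change was -1.18. Soat1, which esterifies cholesterol for storage, was called in neither comparison, with -0.21 in Spns1 KO and 0.28 in FeO. After removal of the length and GC trend the FeO value was 0.93 and called, whereas it was -0.036 in the libraries low in adrenal cortex markers and -0.020 with the marker sum as a covariate. In the FeO group it ranged from 40.2 CPM in FeO 2 to 78.5 in FeO 1.

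**Figure D3:**
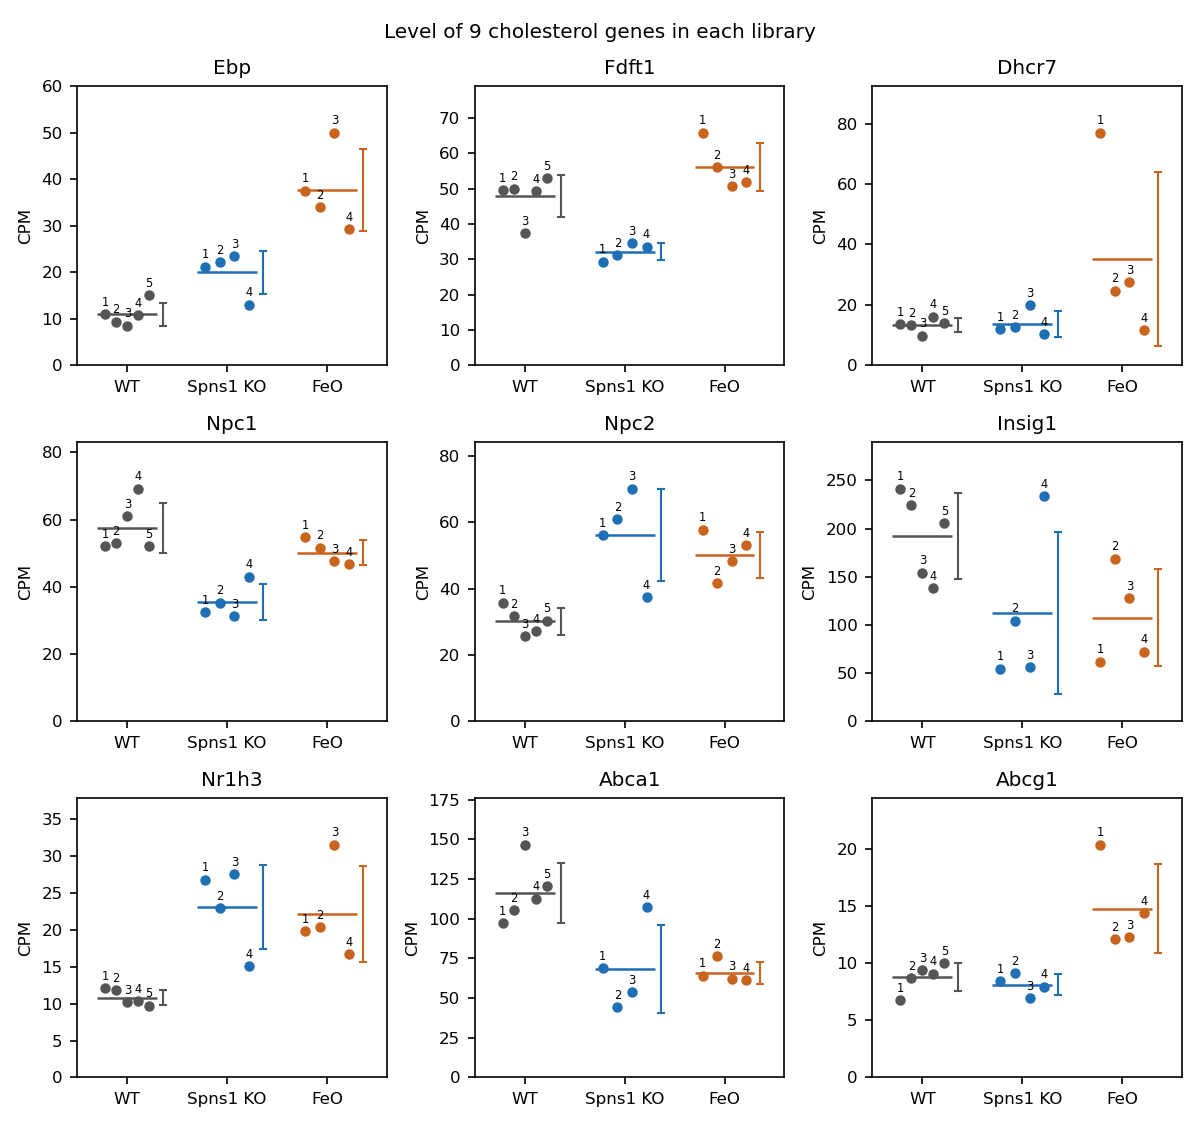
CPM (vertical axes, from 0) of 9 cholesterol genes in the WT, Spns1 KO and FeO libraries, with replicate numbers beside the points, horizontal bars for group means and whiskers for 1 SD. Npc1 and Fdft1 are lowest in Spns1 KO without overlap with WT, Npc2 and Nr1h3 are higher in both groups without overlap, and Dhcr7 is high in FeO 1 to 3 but not in FeO 4.

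Of the 4 genes of LXR and efflux, 1 rose and 1 fell in Spns1 KO, and 2 rose and 1 fell in FeO. Nr1h3, which encodes LXRα, the receptor that switches on cholesterol export, was higher in both groups. It was 12.1, 11.8, 10.2, 10.3 and 9.73 CPM across WT 1 to 5, 26.8, 22.9, 27.6 and 15.1 in Spns1 KO 1 to 4 and 19.8, 20.3, 31.6 and 16.7 in FeO 1 to 4, with every library of both groups above every WT library. Expressed as log2 fold changes, these were 1.09 (SE 0.20, adjusted p = 0.00208) for Spns1 KO and 1.03 (SE 0.21, adjusted p = 0.00140) for FeO, and both calls held whichever library was left out. In the libraries low in adrenal cortex markers they were 1.14 (called) and 0.77 (not called). Nr1h3 lies on chromosome 2 from 91184061 to 91202834, where its exons overlap Gm13783 on the same strand. Nr1h2, which encodes LXRβ, had 0.24 in Spns1 KO and 0.24 in FeO and was not called.

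Abca1, the transporter that loads cholesterol onto apolipoprotein and a classical LXR target, was lower in both groups. It was 97.3, 105, 147, 113 and 120.3 CPM in WT, 68.7, 44.4, 53.9 and 107 for Spns1 KO and 64.1, 76.4, 62.3 and 61.1 for FeO. All FeO libraries lay below WT, and in Spns1 KO all but the library labelled Spns1 KO 4. Against WT this was -0.76 (SE 0.22, adjusted p = 0.0211) for Spns1 KO and -0.82 (SE 0.22, adjusted p = 0.00780) for FeO on the log2 scale. The FeO call held whichever library was left out, but the Spns1 KO call was lost without Spns1 KO 1 (-0.76), Spns1 KO 2 (-0.60), Spns1 KO 3 (-0.66) or WT 3 (-0.65). Removal of the length and GC trend left -0.40 and -0.12, neither called. In the libraries low in adrenal cortex markers the FeO value was -1.01, and with the marker sum as a covariate -0.75, neither called. The Abca1 transcript has 10262 bases, against a median of 2930 over the genes tested. Abcg1, which exports cholesterol to lipoprotein particles and is likewise an LXR target, was 6.78, 8.69, 9.42, 9.11 and 10.0 CPM in WT, 8.47, 9.14, 6.95 and 7.97 for Spns1 KO and 20.4, 12.1, 12.3 and 14.4 for FeO. Every FeO library was above every other library, at 0.75 (SE 0.18, adjusted p = 0.00482) on the log2 scale, and Spns1 KO overlapped WT with -0.11 (SE 0.19, adjusted p = 0.682). The FeO call held whichever library was left out, and the change was 0.71 (not called) in the libraries low in adrenal cortex markers. Per kilobase of transcript Abcg1 was the least abundant of the 31 in WT (1.51 CPM).

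Markers of macrophages and other leukocytes, cells in which Nr1h3, Abca1, Abcg1 and Npc2 are also expressed, were detected in every library (10 of 10). Their summed level was 83.9 to 106 CPM in WT, 197 to 250.2 in Spns1 KO and 123 to 281 in FeO. Every library of both groups thus had a higher sum than any WT library. Of these 10 markers 1 was called higher in Spns1 KO and 6 in FeO, beside 14% and 22.4% of all genes. Adipocyte markers summed to 30.7 to 114, 18.5 to 84.7 and 64.6 to 187 CPM in the same order, with 4 of 7 called higher in FeO. Markers of the loop, distal tubule and collecting duct summed to 1980.4 to 4457, 3387 to 4432 and 2164 to 5502 CPM. Podocyte markers summed to 164 to 293, 234 to 297 and 282 to 651 CPM, endothelial markers to 227 to 282, 296 to 330.1 and 203 to 366, fibroblast and smooth muscle markers to 115 to 132, 169.5 to 208 and 91.2 to 217, and hepatocyte markers to 51.4 to 197, 55.2 to 144 and 193 to 453. The part of these cells in the changes of the 31 genes was not tested.

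Of the 31, 4 genes ranked the FeO libraries as the adrenal cortex markers did, a count that was not made over all genes. They were Fdps, Msmo1, Dhcr7 and Hsd17b7. Hsd17b7 fell in FeO and was highest of all in WT 4 (92.3 CPM), a library low in those markers. Within FeO each of the 4 was highest in FeO 1, followed by FeO 3, FeO 2 and FeO 4, the order of the marker sum. Outside the 31, the same order was seen for Scarb1, the receptor through which steroid-making cells take up cholesterol from lipoproteins. It was 42.5, 46.7, 12.7, 14.4 and 55.3 CPM across WT 1 to 5, 12.7, 11.7, 76.3 and 12.6 in Spns1 KO 1 to 4 and 510.0, 98.6, 125 and 16.5 in FeO 1 to 4. The 6 libraries low in adrenal cortex markers were the 6 lowest for Scarb1, whatever their group. Its FeO change of 2.45 (SE 0.79, adjusted p = 0.0205) from edgeR was 1.24 and not called without FeO 1. In those 6 libraries, where FeO 4 was the only FeO library, it was 0.36. For Ebp all FeO libraries exceeded all others. FeO 4, low in the markers, was the lowest of FeO at 29.3 CPM. Spns1 KO 3, high in them, was the highest of Spns1 KO at 23.4 CPM. Ebp was 11.1, 9.37 and 15.1 CPM in WT 1, 2 and 5, high in the markers, and 8.57 and 10.7 CPM in WT 3 and 4, low in them. The part of adrenal tissue in these values was not tested.

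**Figure D4:**
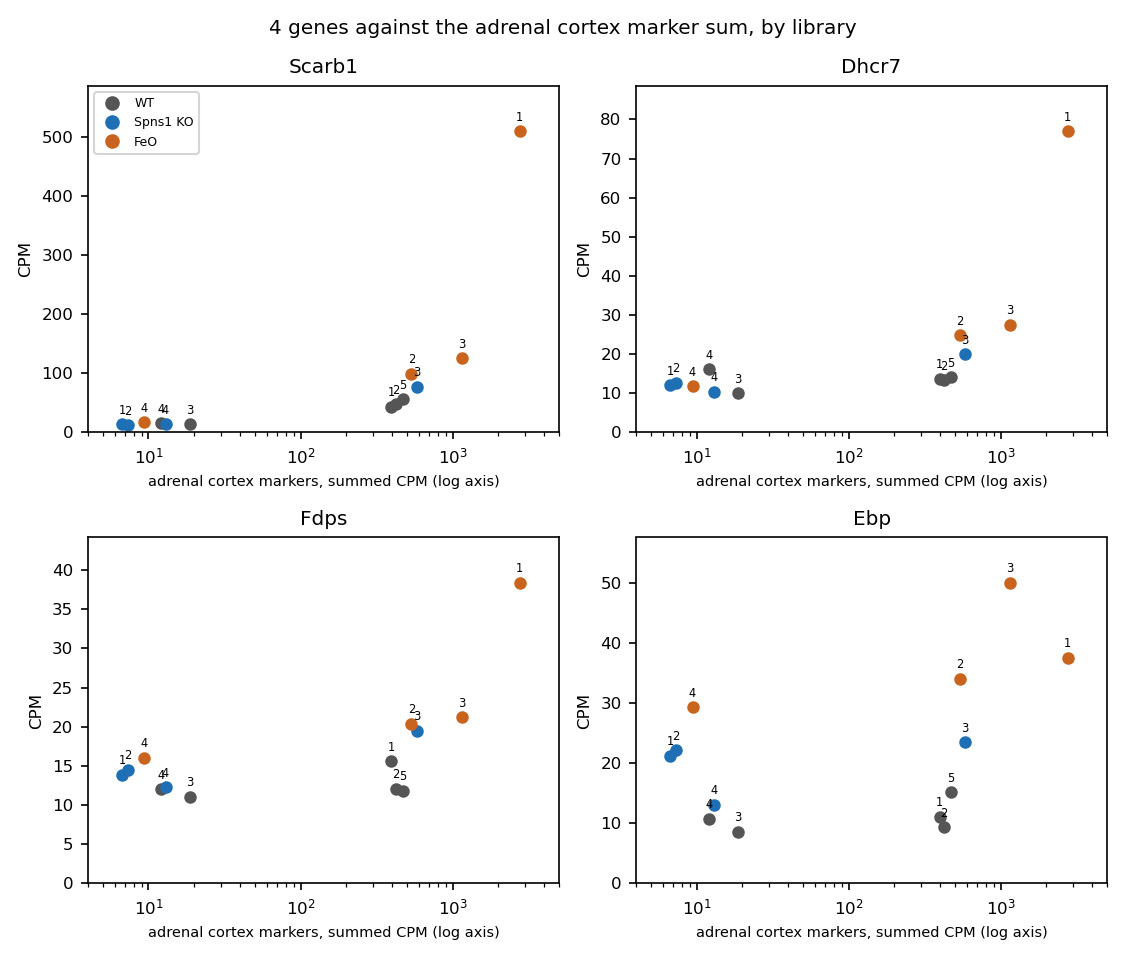
CPM of Scarb1, Dhcr7, Fdps and Ebp (vertical axes, from 0) against the summed CPM of 9 adrenal cortex markers (horizontal axis, logarithmic) in the 13 libraries, with replicate numbers beside the points and colours for WT, Spns1 KO and FeO. Scarb1 and Dhcr7 are highest in FeO 1, which has the highest marker sum. For Ebp all 4 FeO libraries exceed the other 9, and FeO 4, with the lowest marker sum of FeO, is the lowest of the 4.

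Set directly against FeO, Spns1 KO was lower for 4 of the 31 genes and higher for 0, where 8.1% of all genes were called lower and 6.76% higher (14.9% in either direction). The count of 0 was the same in edgeR, DESeq2 and limma-voom, and 3 genes were higher at an unadjusted p under 0.05. The 4 were Fdft1 (-0.80, SE 0.14, adjusted p = 0.00417), Ebp (-0.92, SE 0.23, adjusted p = 0.0156), Abcg1 (-0.86, SE 0.20, adjusted p = 0.0115) and Dhcr7 (-1.37, SE 0.41, adjusted p = 0.0364) on the log2 scale from edgeR. For Fdft1, Ebp and Abcg1 the groups did not overlap. Dhcr7 lost its call without FeO 1 (-0.65), Spns1 KO 1 (-1.31), Spns1 KO 2 (-1.33) or Spns1 KO 4 (-1.26). Npc1 had -0.50 (SE 0.15, adjusted p = 0.0329), a difference just inside the fold limit, and was called without Spns1 KO 4 (-0.60) or FeO 4 (-0.53). Every Spns1 KO library lay below every FeO library for 4 of the 31 (9.1% of all genes) and above for 2, Tm7sf2 and Stard4 (8.25%). With the adrenal cortex marker sum as a covariate, Fdft1 alone was called (-0.66), and in the 6 libraries low in those markers 0 were called by edgeR, with 2 lower and 3 higher at an unadjusted p under 0.05. Calls over all genes were also fewer, with 0.540% higher and 0.826% lower under the covariate and 0.0287% and 0.0805% in the 6 libraries. Without FeO 4, 8 of the 31 were lower, beside 9.52% of all genes.

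Among 86 other genes of sterol handling, grouped in 7 lists, 85 could be tested, of which 16 rose and 4 fell in Spns1 KO and 22 rose and 7 fell in FeO. The medians of the 85 were 0.054 and 0.18, and the calls over all genes are those given above. In the list of lipoprotein receptors and lysosomal ester hydrolysis 5 of 12 rose in Spns1 KO and 1 in FeO (medians 0.30 and -0.24), while 0 fell in either by edgeR (in FeO 3 were lower at an unadjusted p under 0.05 and 2 by DESeq2, in Spns1 KO 0 by both). Amn, the membrane anchor of the cubilin complex, had log2 fold changes of 1.68 in Spns1 KO and 0.67 in FeO (adjusted p = 0.00132 and 0.0720 from edgeR), and Lipa, the lysosomal acid lipase that frees cholesterol from its esters, 1.07 and 0.16 (adjusted p = 0.0425 and 0.728). Lipa lost its Spns1 KO call without Spns1 KO 1, 2 or 3 or WT 1, 2, 3 or 5 (0.71 to 1.18). Lrp2, which encodes megalin and was 554, 548, 755, 669 and 578 CPM in WT, 747, 967, 1076 and 1387 for Spns1 KO and 389, 544, 510.0 and 632 for FeO, had 0.75 and -0.26. Lrp2 and Cubn (1.02 and -0.39) are also among the 10 proximal tubule markers, 7 of which were called higher in Spns1 KO.

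Carriers that move sterol between membranes made the longest of the 7 lists, with 17 genes. In FeO 7 of them were higher and 2 lower, beside 22.4% and 19.7% of all genes. In Spns1 KO 0 were higher and 2 lower, beside 14% and 7.55% (1 higher at an unadjusted p under 0.05, 0 by edgeR, DESeq2 or limma-voom). The medians were 0.15 in FeO and -0.031 in Spns1 KO. Cav1, the caveolar coat protein, had 1.25 in FeO and -0.37 in Spns1 KO. Tmem97, a lysosomal partner of Npc1, had 1.07 and 0.44, and Vapa, the endoplasmic reticulum tether of sterol carriers, 1.06 and 0.054. Gm5809 shares 25.6% of the 31-base sequences of Tmem97, so reads of this pair may be mixed. Osbpl11, an oxysterol-binding protein, fell in both comparisons (-1.11 in FeO and -0.84 in Spns1 KO). Of the GRAMD1 carriers Gramd1b was called lower in FeO (-0.77), lost without Spns1 KO 1 or 3, WT 1, 2, 3 or 5 or FeO 1 or 4 (-0.77 to -0.52), and Gramd1c in Spns1 KO (-0.57), lost without Spns1 KO 1 (-0.50). In the list of oxysterol and cholesterol ester enzymes 2 of 10 rose in Spns1 KO and 3 rose and 1 fell in FeO (medians 0.53 and 0.46). Cyp7b1, the oxysterol hydroxylase, had 1.32 in FeO and -0.28 in Spns1 KO, Acox2, a peroxisomal oxidase, 1.19 and 0.73 with the Spns1 KO call lost without Spns1 KO 1, 2 or 3 or WT 1, 2, 3 or 4 (0.60 to 0.81), and Acat1, the mitochondrial thiolase, 0.22 and 1.08. Ch25h, which makes an oxysterol that holds back SREBP activation, was 0.490, 0.401, 0.283, 0.459 and 0.811 CPM in WT, 1.03, 0.974, 1.24 and 0.590 for Spns1 KO and 0.0328, 0.195, 0 and 0.225 for FeO. All FeO libraries lay below WT, at levels of few counts, and the fitted change was -2.05 (SE 0.59, adjusted p = 0.0120) from edgeR.

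Of 15 fatty acid and lipid genes driven by SREBP1, 4 rose and 1 fell in Spns1 KO and 5 rose and 1 fell in FeO (medians 0.032 and 0.57). For this list and the next, the shares over all genes were 14% higher and 7.55% lower in Spns1 KO. In FeO they were 22.4% and 19.7%. Me1, the malic enzyme that supplies NADPH, had 1.13 in Spns1 KO and 0.96 in FeO, and Fads2, a fatty acid desaturase, 0.98 and 1.03, the former lost without Spns1 KO 1 or 3 or WT 3 (0.82 to 0.94). Gm7049 and Gm7329 share 35.3% of the 31-base sequences of Me1, so its counts are uncertain. Scd2, a stearoyl-CoA desaturase, had -0.68 and 0.83, and 0.50 in FeO without FeO 1, no longer called. Gpam, the first acyltransferase of glycerolipid synthesis, fell in FeO (-1.32, and -0.64 in Spns1 KO), and Acacb, the mitochondrial acetyl-CoA carboxylase, in Spns1 KO (-0.98 and -0.30 in FeO), a call lost without Spns1 KO 2 (-0.85). Of 9 further LXR targets and efflux genes that could be tested, 2 rose in Spns1 KO and 2 rose and 2 fell in FeO (medians 0.11 and 0.18). Pltp, the phospholipid transfer protein and an LXR target, had 1.93 (SE 0.36, adjusted p = 0.00192) in Spns1 KO and 1.82 (SE 0.36, adjusted p = 0.00135) in FeO from edgeR. Smpdl3a, a secreted phosphodiesterase, had 0.95 and 0.18, Lpcat3, a phospholipid acyltransferase, 0.39 and 0.69, and the coregulators Ncoa1 and Ncor1 -0.67 and -0.60 in FeO, where Ncoa1 was -0.071 and not called after removal of the length and GC trend and Ncor1 lost its call without WT 3 or 4 or FeO 1, 2 or 4 (-0.59 to -0.41).

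Isoprenoid branches off the mevalonate route gave 2 of 11 higher in Spns1 KO, and 2 higher and 1 lower in FeO (medians 0.065 and 0.046). Beside both lists of 11 stand 14% of all genes higher and 7.55% lower in Spns1 KO, and 22.4% and 19.7% in FeO. Nus1, a subunit of the dolichol-making prenyltransferase, had 0.81 in Spns1 KO and -0.13 in FeO, the former lost without Spns1 KO 1 or 3 or WT 1, 2, 3 or 5 (0.69 to 0.82). Fnta, the farnesyltransferase subunit, had 0.096 and 0.81, and Rabggta, of the Rab prenyltransferase, 0.57 and 0.58, the former lost without WT 4 (0.49). Pggt1b, a subunit of another protein prenyltransferase, fell in FeO (-1.20, and -0.32 in Spns1 KO). Of 11 genes of SREBP processing and sterol-regulated degradation, 1 rose and 1 fell in Spns1 KO and 2 rose in FeO (medians -0.095 and 0.010). Aup1, a lipid droplet protein of the degradation machinery, had 0.80 and 0.68, and 0.41 in FeO, inside the fold limit, after removal of the length and GC trend.

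**Figure D5:**
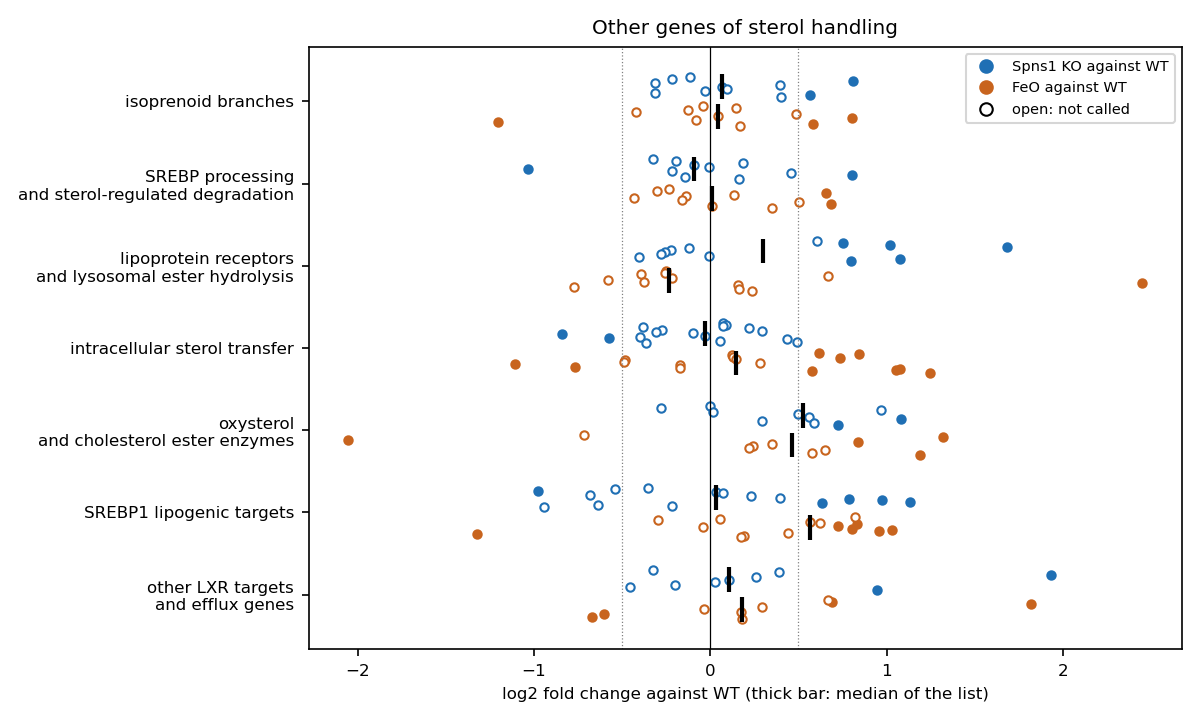
Log2 fold change against WT (horizontal axis) of the other genes of sterol handling in 7 lists (vertical axis), blue for Spns1 KO and orange for FeO, each point 1 gene, filled where called, with black bars at the list medians and dotted lines at the fold limits of 0.5. Scarb1 (2.45) lies farthest to the right and Ch25h (-2.05) farthest to the left, both in FeO.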

How the data were processed

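Thiouracil-labelled, poly-A-selected RNA of 13 kidney samples from female mice was sequenced in pairs of reads. Per the labels the authors used bcl2fastq 2.19 and kallisto 0.44.0 with GRCm38, whereas the methods describe alignment with STAR and counting with HTSeq, so the counting tool is uncertain. The deposited file holds 1 table of estimated counts per gene symbol for 35013 symbols, all whole numbers and not normalised, which were used as they stand. Low counts were filtered with filterByExpr, libraries scaled by TMM, and all 13 libraries fitted with edgeR 4.0.16 (R 4.3.3, limma 3.58.1) by the quasi-likelihood test with Benjamini-Hochberg adjustment over 16468 genes. The 31 genes, the other lists and markers were chosen with earlier results of these data known. Every gene of the 31 is named, with values per library where it was called, and from each other list up to 3 called genes a direction with the largest change. Alternatives used DESeq2 1.42.0, limma-voom, other scalings, a trend on length and GC (mgcv 1.9.3) and omission of libraries. Fits were tested on simulated counts. Gene positions, lengths and shared 31-base sequences come from GENCODE M21, promoters from RefSeq. Total counts of 23068023 or more per library make counting error small against the spread between libraries for all but the lowest genes. Single values of 2 genes of these lists are not reported here.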

Additional observations from a re-analysis of the deposited data

Results flagged for a closer look

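In 8 of 93 sets of replicates (31 genes in 3 groups) 1 library stood apart from the others by Dixon's test at the 95% level, which chance does for about 1 set in 20. In Spns1 KO these were Pmvk at 23.1 CPM in the library labelled Spns1 KO 4, above a next value of 15.2, and, below the others in the same library, Mvd at 12.0 CPM (next 15.9) and Cyp51 at 98.8 CPM (next 128). In WT they were Fdps at 15.6 CPM in WT 1, above the next at 12.1, Insig2 at 46.7 CPM in WT 4, above 36.5, and in WT 3 Fdft1 at 37.5 CPM, below 49.2, and Soat1 at 55.2 CPM, above 47.8. In FeO it was Nsdhl at 80.1 CPM in FeO 3, above 49.3.

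The responses to the 2 conditions differed for 4 of the 31 genes, beside 14.9% of all genes. This count is from the direct edgeR comparison of Spns1 KO with FeO, which is independent of the WT libraries apart from the shared estimate of spread. The log2 differences were -0.80 for Fdft1, -0.92 for Ebp, -1.37 for Dhcr7 and -0.86 for Abcg1, with the first 3 enzymes of synthesis and the last an exporter. The difference of Dhcr7 was -0.65 without FeO 1, which also had the highest adrenal cortex marker sum. With that sum as a covariate, Fdft1 alone of the 4 was called, beside 0.540% of all genes higher and 0.826% lower.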

How the results depend on the processing

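Calls of Ebp, Npc2 and Nr1h3 in both comparisons, and of Fdft1 and Npc1 in Spns1 KO, were the same under RLE, upper-quartile and library-total scaling, DESeq2, limma-voom and no filter on low counts. Relative to WT, the number of the 31 genes called moved as follows. With the length and GC trend removed, 0 were lower in Spns1 KO by edgeR (4 at an unadjusted p under 0.05) and 1 in FeO, beside 4.69% and 13.3% of all genes. The 1 was Tm7sf2, a call gained, while Hsd17b7, Stard4 and Abca1 lost theirs. In the 6 libraries low in adrenal cortex markers, chosen after seeing the data, 2 were higher and 0 lower in Spns1 KO, 1 higher and 1 lower in FeO, and 0 lower in Spns1 KO against FeO, a set that also holds fewer libraries. With the adrenal cortex marker sum as a covariate, also chosen after seeing the data, 6 were higher and 1 lower in FeO, and 1 was lower in Spns1 KO against FeO. With 1 library left out at a time, 3 (without Spns1 KO 1, 2 or 3) to 6 were higher and 2 to 4 lower in Spns1 KO, 7 (without FeO 3) to 14 (without FeO 4) higher and 1 (without WT 4) to 4 lower in FeO, and 3 to 8 (without FeO 4) lower in Spns1 KO against FeO. The causes of these moves were not tested.

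Of 2952 recomputed log2 fold changes of single genes, 2638 kept direction and side of the limits, 239 were no longer called, 30 became called and 45 changed sign. Of values called in the full set, those of Dhcr7, Fads2 and Ncor1 in FeO were among the 45. With library totals as scaling the changed values were in Spns1 KO Hmgcs1 -0.049, Dhcr7 -0.10 and Scap -0.063, and with limma-voom in Spns1 KO Dhcr7 -0.013. With the length and GC trend removed they were in Spns1 KO Fdps -0.088, Lss 0.033, Tm7sf2 -0.12, Hsd17b7 0.099, Stard4 0.15, Soat1 0.17, Abcg1 0.11 and Nr1h2 -0.033 and in FeO Pmvk -0.19, Srebf2 0.18, Npc1 0.14 and Ncor1 0.098. In the libraries low in adrenal cortex markers they were in Spns1 KO Hmgcs1 -0.076, Pmvk 0.49, Dhcr7 -0.093 and Scap -0.015 and in FeO Idi1 -0.39, Sqle -0.43, Tm7sf2 0.054, Msmo1 -0.051, Dhcr7 -0.066, Scap -0.27, Soat1 -0.036 and Fads2 -0.18, and with the marker sum as a covariate in FeO Pmvk -0.042, Idi1 -0.18, Sqle -0.0088, Scap -0.039 and Soat1 -0.020. With 1 library left out at a time the ranges were Dhcr7 in Spns1 KO from -0.20 to 0.15 (sign changed without Spns1 KO 3 or WT 3), Hsd17b7 in Spns1 KO from -0.22 to 0.012 (sign changed without WT 4), Idi1 in FeO from -0.064 to 0.28 (sign changed without FeO 1), Msmo1 in Spns1 KO from -0.19 to 0.0065 (sign changed without WT 4), Pmvk in Spns1 KO from -0.28 to 0.069 (sign changed without WT 5), Scap in Spns1 KO from -0.020 to 0.14 (sign changed without Spns1 KO 1), Srebf2 in FeO from -0.19 to 0.017 (sign changed without FeO 4) and Stard4 in Spns1 KO from -0.20 to 0.057 (sign changed without WT 4).

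Replicate numbers are shared between the groups, but samples with the same number did not deviate together (correlations from -0.30 to 0.26), and 3 of 13 libraries correlated best with one of their own number. With the number as a replicate block, 5 of the 31 were higher and 3 lower in Spns1 KO, beside 11.7% and 6.42% of all genes. In FeO 9 were higher and 3 lower, beside 20.2% and 19.4%, and in Spns1 KO against FeO 3 were lower, beside 6.36%. In that fit the sign changed in Spns1 KO for Pmvk 0.061 and Scap -0.014 and in FeO for Idi1 -0.014. Depth limits mainly Ch25h among the genes named. One iron dose, 1 time and 1 sex were measured, and the labels do not tie libraries to mice.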
